A study of Mus musculus with 2 samples.

Results

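The nuclear genes for subunits of respiratory complexes II to V, with cytochrome c and the assembly factors whose symbols share the same stems, were described in mouse gastrocnemius. Membership was decided by symbol, under a rule set with earlier results of these data known. The rule took the protein-coding nuclear genes Sdha, Sdhb, Sdhc, Sdhd, Cyc1 and Cycs. It also took every such gene whose symbol begins with Uqc, with Atp5, or with Cox4, Cox5, Cox6, Cox7 or Cox8. This gave 53 of the 55536 annotated genes, with 52 symbols, since Atp5o has 2 identifiers, on 19 chromosomes. Of these, 4 belong to complex II, 9 to complex III, 3 to the assembly of complex III, 1 is cytochrome c, 18 belong to complex IV and 18 to complex V.

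Total RNA was sequenced from the gastrocnemius, a calf muscle. The mice were males of B6CASTF1/J, a first-generation hybrid of the B6 and CAST strains, at an age of 2 months. The study has 1 group of 2 libraries, replicates 1 and 2, so no condition was compared. Each library started from 300 ng, and ERCC spike-ins were added. The labels give both libraries the same donor entry and do not say that the muscles came from separate animals, so the spread between them may be technical. Reads of the B6 and CAST alleles were not separated in the deposited values. In bulk muscle, fewer cells of a type and less RNA per cell cannot be told apart.

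Complexes II, III and IV pass electrons from succinate and ubiquinol through cytochrome c to oxygen, and complex V, the ATP synthase, uses the proton gradient that complexes I, III and IV build. Complex II is encoded by nuclear genes alone, whereas complexes III, IV and V also hold subunits encoded by the mitochondrial genome. Several subunits of complexes IV and V have tissue isoforms encoded by separate genes, and oxidative muscle fibres contain more mitochondria than glycolytic fibres.

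The libraries held 42925570 and 42467674 expected read counts. Levels are given as TPM, a read level corrected for transcript length and library size, from the first of 2 kinds of deposited table. The second kind of table was made from the same libraries by another estimate, and its values are given for some members only. Genes were compared between the libraries as replicate 2 over replicate 1 on rounded expected counts, scaled by TMM factors of edgeR, using a two-sided exact binomial test on each gene's reads in both libraries. Its p-values were corrected after Benjamini and Hochberg across the 14827 genes whose 2 counts summed to 20 or more. A gene was called at an adjusted p under 0.05 and a scaled count at least 25% higher in either library, which is 0.322 on the log2 scale. Unless said otherwise, log2 ratios are of these scaled counts, and ratios of the printed TPM can be lower or higher. The binomial test compares the reads of the 2 libraries and has no replicate check.

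At least 1 TPM in both libraries was reached by 48 of 53 members and at least 100 TPM by 40. The shares of all genes at these TPM levels were not counted. Their summed level was 14474 TPM in replicate 1 and 18178 TPM in replicate 2, a mean of 16326 ± 2619 (SD, n = 2). As a share of the TPM of nuclear protein-coding genes, they made up 3.535% and 4.699% in the 2 libraries. The 18 genes of complex V summed to 6685 ± 1013 TPM and the 18 of complex IV to 5588 ± 996.5 TPM. The 9 of complex III summed to 2883 ± 439.9 TPM and the 4 of complex II to 893.3 ± 161.7 TPM (SD, n = 2 each). Cox7b2 and Cox8c had no read in either library, which allows up to 3 reads each, Cox6b2 had 3 and 4 reads, and the second identifier of Atp5o had 0 and 2.53. These 4 were not tested and the other 49 were.

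**Figure D1:**
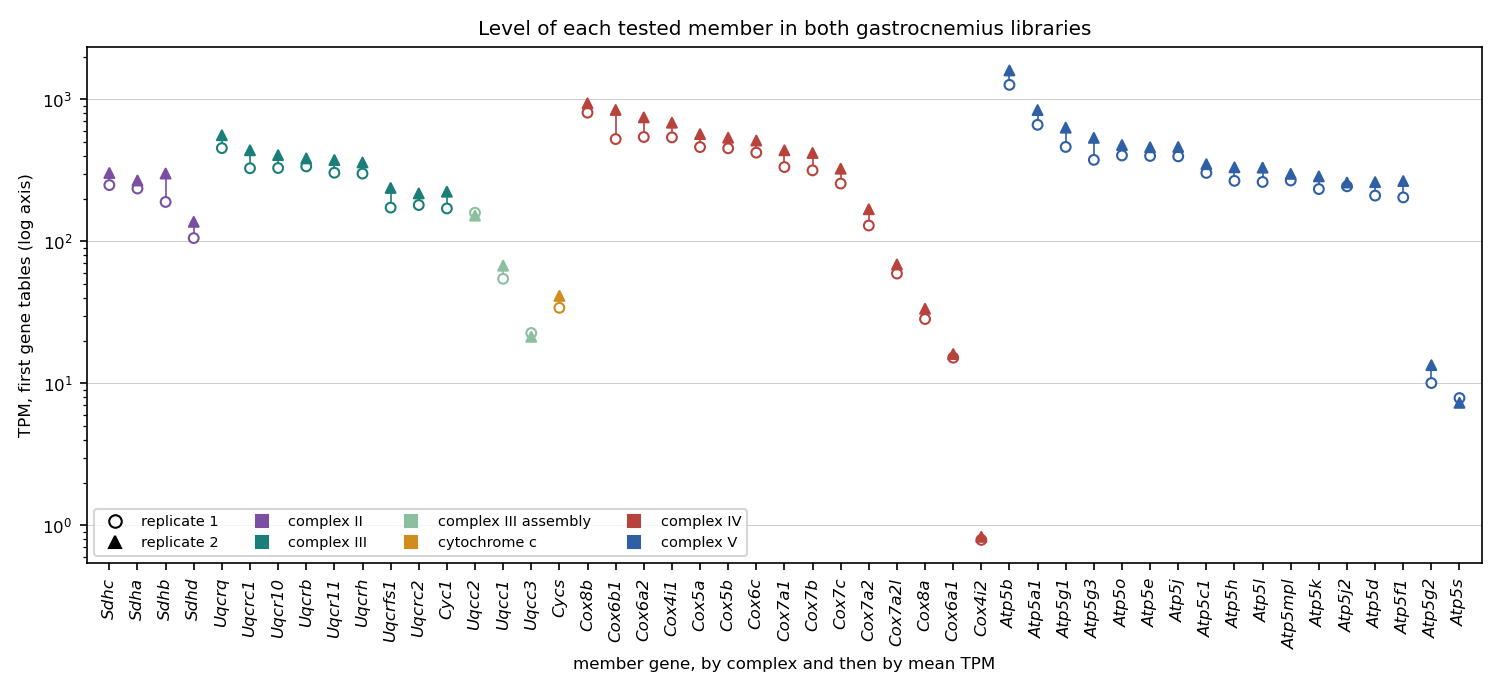
TPM of the 49 tested members in the first gene tables, on a log axis, with open circles for replicate 1 and filled triangles for replicate 2, coloured by complex. Most members lie between 100 and 1000 TPM, Atp5b is the highest at 1264 and 1596 TPM, and Cox4i2 is the lowest at 0.79 and 0.83 TPM.

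Most members stood higher in replicate 2 than in replicate 1, in all 4 complexes. Of 49 tested members, 31 were called with scaled counts at least 25% higher in replicate 2, which is 63.3%, against 8.33% of all genes tested. No member was at least 25% higher in replicate 1 by this test, against 5.33% of all genes. The median log2 ratio of the members was 0.35, a 1.275-fold difference, against 0.001 over all genes tested and 0.012 over the 9569 protein-coding genes whose counts summed to 200 or more. At the adjusted p alone, 44 members were higher in replicate 2, against 14.3% of all genes, and 0 were higher in replicate 1, against 11.5%. At 1.5-fold only Sdhb was called, against 4.1% of all genes. The ratios were close to each other: 43 of the 49 lay between 0.2 and 0.6, and 13 passed the adjusted p while staying under the 25% line, so the count of 31 depends on where that line is drawn. Scaling by the library total ended 9 calls, those of Sdha, Uqcr10, Uqcr11, Uqcrq, Cycs, Cox5a, Cox6b1, Cox6c and Atp5k, and left 22 members called. DESeq2 size factors ended 5 of these, those of Sdha, Uqcrq, Cycs, Cox6b1 and Cox6c, and left 26.

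**Figure D2:**
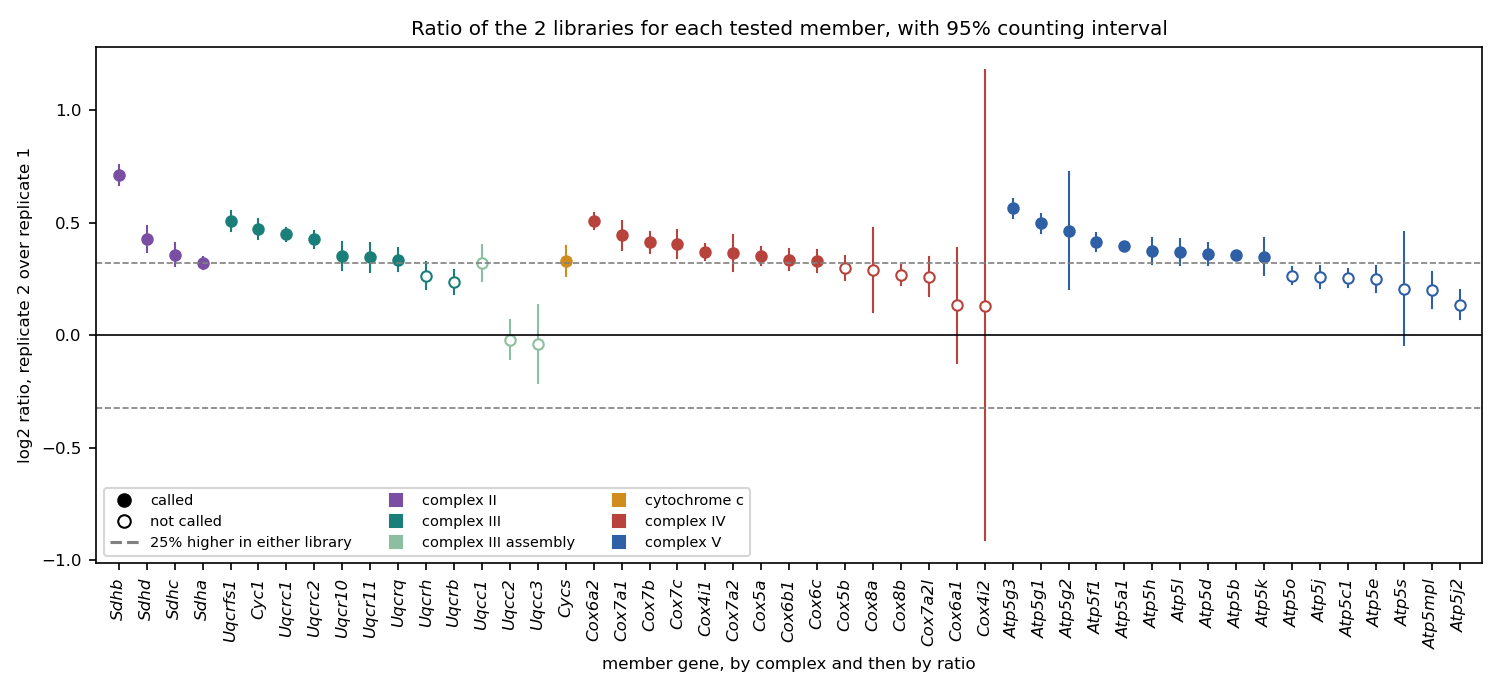
Log2 ratio of replicate 2 over replicate 1 for each tested member, ordered by complex and then by ratio, with 95% Clopper-Pearson counting intervals, filled where called. The dashed lines mark 25% higher in either library; 47 of 49 ratios are above 0, Sdhb is the highest at 0.714, and Uqcc2 and Uqcc3 lie just below 0.

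The libraries also differed in fibre-type markers. All 8 slow-fibre genes listed rose, their median log2 ratio being 1.401, and their summed level was 1249 TPM in replicate 1 and 3195 TPM in replicate 2. Myl2, a slow myosin light chain, was at 304.2 and 799.6 TPM, and Myh7, the slow myosin heavy chain, at 203.9 and 529.1 TPM. Of 8 fast-fibre genes, 4 fell and none rose, with a median of -0.309. Myh4, the fast IIb myosin heavy chain, was at 11267 and 8431 TPM. Of 4 fibro-adipogenic genes 3 fell, with a median of -0.728, and of 4 endothelial genes 2 rose, with a median of 0.363. Of 5 heart genes, Nppa, Nppb and Myl7 had no read and Tnni3 had 3 and 2, while Myh6, which is also found in some skeletal fibres, was at 42.55 and 104.9 TPM. Rescaled to protein-coding genes, the 5 heart genes summed to 104.3 and 271.5 TPM in the first tables and 34.03 and 94.51 in the second. The part of these markers in the members' ratios was not tested.

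Medians lay above 0 in the other lists of oxidative genes too. Of 38 genes with Nduf symbols, listed under complex I, 14 rose and none fell, with a median log2 ratio of 0.278. Of the 6 subunits of complexes III to V encoded in mitochondria, 4 rose, with a median of 0.508; mt-Co1, the catalytic subunit of complex IV, was at 13822 and 17894 TPM. Of 14 citric acid cycle genes 6 rose, with a median of 0.303. Of 34 assembly factors of complexes II to V outside the members, 12 rose, with a median of 0.243. Of 13 regulators of respiratory genes 6 rose and 7 were not called, with a median of 0.29. Perm1, a muscle regulator induced by PGC-1 and ERR, was at 55.82 and 95.16 TPM. Esrra, which encodes the nuclear receptor ERR alpha, was at 31.36 and 40.78 TPM, and both were called. Tfam, the next by mean TPM, was at 17.45 and 19.23 TPM with a ratio of 0.188 and was not called. These lists hold different genes from the members but were measured in the same libraries.

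All 4 genes of complex II rose. Sdhb, the iron-sulfur subunit, had 189.3 TPM in replicate 1 against 300 TPM in replicate 2, where its counts were 6781 and 10757. Its log2 ratio of 0.714 (95% counting interval 0.67 to 0.758) was the largest of the 49 members tested. Sdha, the flavoprotein that oxidises succinate, was at 235.4 and 268 TPM. Its ratio of 0.323 by scaled counts lay just past the line, while its TPM gave 0.187. Sdhc, a membrane anchor, was at 248.9 and 302.6 TPM with a ratio of 0.359. Sdhd, the other anchor, was at 105.4 and 137.1 TPM with a ratio of 0.429. The intervals of Sdhb and of the next of the 4, Sdhd, at 0.37 to 0.488, did not overlap, though they cover counting error only. Levels of the 4 genes spanned 2.272-fold after rescaling to protein-coding genes.

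Of the 9 genes of complex III, 7 rose and 2, Uqcrh and Uqcrb, did not reach the 25% line. Uqcrfs1, the Rieske iron-sulfur protein, was at 172.8 and 237.5 TPM and had the largest ratio of the complex, 0.508 (0.465 to 0.551). Cyc1, cytochrome c1, was at 170.4 and 223.4 TPM with a ratio of 0.473. Uqcrc1, a core protein, was at 326.9 and 437.6 TPM with a ratio of 0.449. Uqcrq, a small subunit, was the most abundant of the 9 at 453.2 and 558.1 TPM, with a ratio of 0.336. The small subunit Uqcr10 was at 328.2 and 404.4 TPM, with a ratio of 0.351. Uqcrc2, the partner of Uqcrc1 in the core, was at 180.1 and 217.4 TPM with a ratio of 0.426, and the small subunit Uqcr11 at 304.1 and 373.6 TPM with a ratio of 0.346. The genes not called lay just below: Uqcrh, the hinge protein beside cytochrome c1, was at 299.9 and 359.1 TPM with a ratio of 0.264 (0.204 to 0.324). Uqcrb, which binds near the ubiquinone site, was at 336.9 and 383.4 TPM with a ratio of 0.237. Levels within complex III spanned 2.566-fold, from Cyc1 to Uqcrq.

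Of the 3 assembly factors of complex III, which act on its cytochrome b, Uqcc2 and Uqcc3 had nearly equal values in both libraries. Uqcc2 was at 158.9 and 151.7 TPM, and Uqcc3 at 22.62 and 21.27 TPM. Neither was called, with log2 ratios of -0.019 (-0.106 to 0.068) and -0.039 (-0.213 to 0.135). Uqcc1 was at 54.46 and 67.32 TPM with a ratio of 0.321, just under the line. The Uqcc2 interval lay below that of each of the 9 subunits, the lowest of which was Uqcrb at 0.182 to 0.292. These intervals cover counting error between 2 libraries only. In the second tables, Uqcc1 was called with a ratio of 0.353, while Uqcc3 had a ratio of 0.138 and Uqcc2 one of -0.005, neither of them called. Uqcc1 was also called under the spike-in sum, at 0.373.

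Cytochrome c, encoded by Cycs, carries electrons from complex III to complex IV, and its level depended on the table. Cycs was at 34.03 and 41.27 TPM in the first tables, with a ratio of 0.33 (0.265 to 0.396). In the second tables it was at 438.7 and 519.9 TPM, which is 7.89 and 8.02 times the first tables' level after both are rescaled to protein-coding genes. Reads were also assigned to copies of Cycs. Gm10053, on chromosome 19 (mm10 chr19:24875686-24876631) and annotated as protein coding, held 5171 and 6396 reads in the first tables, against 3434 and 4175 on Cycs. In the second tables Gm10053 held 3020 and 3806 reads, against 6385 and 7845 on Cycs. Gm10053 matched Cycs at 99.89% over 946 bases, and their 315 coding bases did not differ. Gm10108, a processed pseudogene on chromosome 5, held 619.3 and 859.1 reads in the first tables and none in the second. Over the coding bases it differed from Cycs by the substitutions G4A and G44A, counted from 1 at the first base of the start codon, with the base of Cycs first. With the copies added, Cycs was at 334.3 ± 57.22 TPM (SD, n = 2) with a ratio of 0.358, and the second tables were then 1.282 and 1.247 times the first. The 2 kinds of table also placed the reads on different transcripts: Cycs-202, the 3123-base coding transcript, led in the first with 96.59% and 96.73% of the gene's TPM, and Cycs-201, a 607-base transcript annotated as a retained intron, led in the second with 90.1% and 90.25%.

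Of the 15 tested genes of complex IV, 9 rose, none fell, and 6 did not reach the call. Cox8b, the muscle form of a small subunit, was the most abundant at 805.5 and 937.2 TPM, with a log2 ratio of 0.268. Cox6a2, the heart and muscle form of subunit 6a, was at 542.7 and 745.6 TPM. Its ratio of 0.508 (0.472 to 0.544) was the largest of the complex. Cox4i1, the widely expressed form of subunit 4, was at 539.4 and 684 TPM with a ratio of 0.369. Cox7a1, the muscle form of subunit 7a, was at 333.4 and 437.5 TPM with a ratio of 0.444, and its partner Cox7a2 was at 129.2 and 168.1 TPM with a ratio of 0.367. Cox7b was at 315.9 and 418.7 TPM with a ratio of 0.413. Cox5a was at 461 and 568.6 TPM with a ratio of 0.353, and Cox6c at 421.2 and 512.3 TPM with a ratio of 0.331. Cox7c was at 255.1 and 324.4 TPM with a ratio of 0.406. These 3 small subunits have no separate isoform gene among the members, and each was called, although Cox5a and Cox6c were not under the library total. Among the genes not called, Cox5b, which binds zinc, was at 451.9 and 536 TPM with a ratio of 0.299. Cox7a2l, which links complexes III and IV in supercomplexes, was at 59.3 and 68.67 TPM with a ratio of 0.26. Cox6a1 was at 15.16 and 16.08 TPM with a ratio of 0.133 (-0.123 to 0.39). Cox4i2, known from lung, had 17 and 18 reads.

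In each isoform group of complex IV, the same gene led in both libraries and in both kinds of table. Cox4i1 gave 99.85% and 99.88% of the TPM of its pair with Cox4i2. Cox6a2 gave 97.28% and 97.89% of its pair with Cox6a1, and Cox8b gave 96.6% and 96.55% of the group of Cox8a, Cox8b and Cox8c. Cox6b1 gave 99.96% in both libraries, and Cox7b all of its pair, since Cox6b2 had at most 4 reads and Cox7b2 none. The muscle isoform was less dominant in subunit 7a, where Cox7a1 gave 72.07% and 72.24%, and 53.9% and 56.19% in the second tables. The ratio of Cox6a2 exceeded that of Cox6a1: the reads of this pair differed between the libraries by log2 odds of 0.375 (Fisher's exact test, p = 0.00426, adjusted p = 0.0256 over 6 pairs). Fisher's test here covers counting error between these 2 libraries only and has no replicate check. The other 5 pairs tested had adjusted p of 0.0918 or above, with log2 odds from -0.065 for Atp5g1 over Atp5g3 to 0.238 for Cox4i1 over Cox4i2.

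**Figure D3:**
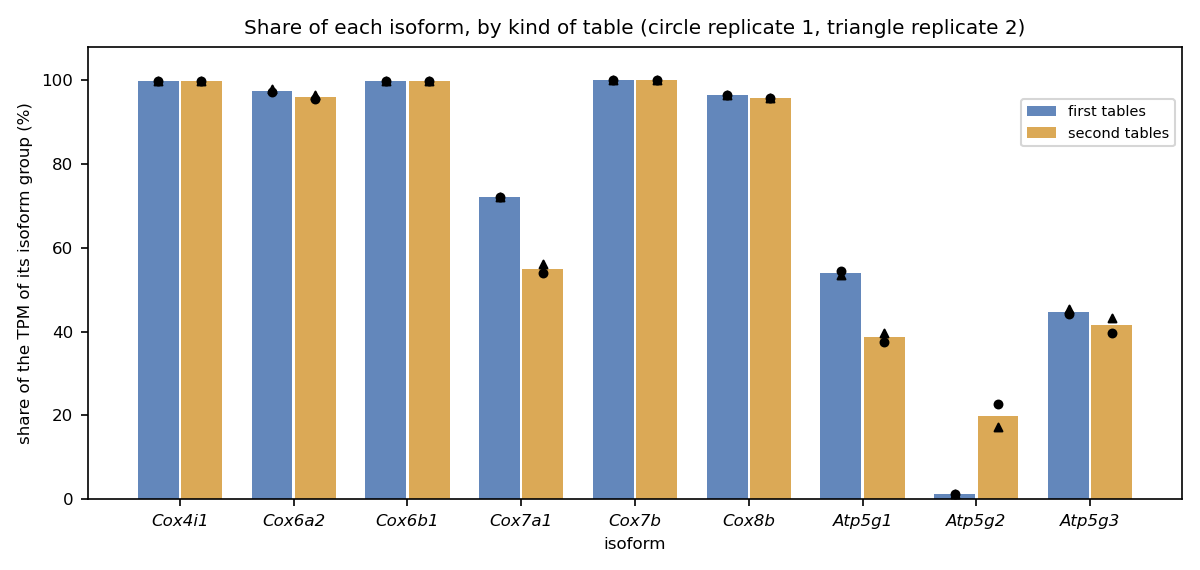
Share of each isoform in the summed TPM of its isoform group, as the mean of 2 libraries (bars) with each library as a point, for the first and second tables. Cox4i1, Cox6a2, Cox6b1, Cox7b and Cox8b lie above 95% in both kinds of table, and Cox7a1 and the 3 Atp5g genes shift with the table.

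The sequences before the start sites of Cox8b and Cox8a are shown because they are the muscle form and the widely expressed form of 1 subunit, and Cox8a was at only 28.37 and 33.5 TPM. Each is the 250 bases upstream of the RefSeq start in GRCm38.p6, read 5′ to 3′ on the gene's strand, and capitals mark the motif CAGCTG, an E-box bound by myogenic factors. Cox8b lies at chr7:140900447-140900696 and Cox8a at chr19:7217617-7217866, both on the minus strand.
Cox8b: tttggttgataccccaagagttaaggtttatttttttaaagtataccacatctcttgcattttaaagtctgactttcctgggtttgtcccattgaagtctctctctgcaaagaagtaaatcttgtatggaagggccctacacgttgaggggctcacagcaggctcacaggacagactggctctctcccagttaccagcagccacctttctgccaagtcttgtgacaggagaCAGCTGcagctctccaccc
Cox8a: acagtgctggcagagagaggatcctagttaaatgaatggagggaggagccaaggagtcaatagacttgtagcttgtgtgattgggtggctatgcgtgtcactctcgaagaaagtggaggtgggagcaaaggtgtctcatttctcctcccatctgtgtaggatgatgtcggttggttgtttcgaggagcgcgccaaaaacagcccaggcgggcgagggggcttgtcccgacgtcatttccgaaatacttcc
The window of Cox8b held 1 CpG and 47.2% G and C, and that of Cox8a held 11 CpG and 52.8%. In the subunit 7a pair, the window of Cox7a1, the muscle form, held 4 CpG and that of Cox7a2 held 14, and neither held CAGCTG. RefSeq start windows of 300 bases, from 250 before to 50 after the start, were found for 40 of the 52 symbols, and not matched for Atp5a1, Atp5mpl, Cox4i1, Cox4i2, Cox6a2, Cox6c, Cox8c, Cyc1, Sdhc, Uqcrb, Uqcrc2 and Uqcrq. CGCATGCG, a core of the NRF1 motif, was present on either strand in 7 of the 40 windows (17.5%) against 1.913% of 27025 genes. CCGGAAG, a core of the ETS and GABP motif, was in 11 (27.5%) against 9.121%, and AAGGTCA, a nuclear receptor motif bound by ERR, in 6 (15%) against 4.659%. AAGATGGC, a YY1 motif, was in 3 (7.5%) against 2.879%, and TATAAA in 3 against 14.16%. CAGCTG was in 3, those of Atp5b, Cox8b and Uqcc3, against 16.11%. None of the 6 strings contains another. The members' windows were also richer in G and C, with a median of 56.17% against 52.67%, and the part of this in the counts was not tested.

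Of the 17 tested genes of complex V, 10 rose, none fell, and 7 did not reach the call. Atp5b, the catalytic beta subunit, was the most abundant of all members at 1264 and 1596 TPM, a mean of 1430 ± 234.9 (SD, n = 2), with a log2 ratio of 0.358 (0.343 to 0.373). Atp5a1, the alpha subunit that alternates with beta in the F1 head, was at 661.5 and 839.3 TPM with a ratio of 0.395. The other F1 subunits did not behave alike in the call. Atp5d, the delta subunit, was at 209.9 and 261.1 TPM and was called with a ratio of 0.36. Atp5c1, the gamma subunit of the central stalk, was at 303.1 and 349.3 TPM, and its ratio of 0.255 (0.216 to 0.294) was not called. Atp5e, the epsilon subunit, was at 399.2 and 459.1 TPM, and its ratio of 0.249 was not called. In the peripheral stalk, Atp5f1, subunit b, was at 203.8 and 265.7 TPM and was called with a ratio of 0.416. Atp5h, subunit d, was at 266.6 and 331.8 TPM and was called with a ratio of 0.376. Atp5j, coupling factor 6, was at 396.4 and 461.4 TPM, and its ratio of 0.261 was not called. Atp5o, the stalk subunit OSCP, was at 402.5 and 476.2 TPM with a ratio of 0.265, and was not called. Atp5k and Atp5l, subunits e and g of the membrane part, were at 233.3 and 286.5 TPM and at 261.8 and 330.1 TPM, with ratios of 0.35 and 0.37, and were called. Atp5j2, the membrane subunit f, was at 244 and 259.2 TPM and had the smallest ratio of the subunits with at least 200 summed reads in this complex, 0.136 (0.071 to 0.2). Atp5mpl, a small membrane subunit, followed at 268.1 and 298.5 TPM with a ratio of 0.202. Atp5s, a factor at 7.88 and 7.29 TPM, was the least abundant of the 17.

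Subunit c, which forms the rotating ring of complex V, is encoded by Atp5g1, Atp5g2 and Atp5g3. The proteins differ in length, at 136, 146 and 141 residues, but their last 78 residues, which cover the mature subunit, were identical in the leading transcripts. The coding bases of that stretch are shown because reads can be told apart only where they differ. Capitals mark the 63 of 234 bases at which the 3 genes were not all alike, in transcripts Atp5g1-202 (chr11:96068852-96075670), Atp5g2-202 (chr15:102662864-102672352) and Atp5g3-201 (chr2:73908447-73911326), with mm10 coordinates of the gene.
Atp5g1: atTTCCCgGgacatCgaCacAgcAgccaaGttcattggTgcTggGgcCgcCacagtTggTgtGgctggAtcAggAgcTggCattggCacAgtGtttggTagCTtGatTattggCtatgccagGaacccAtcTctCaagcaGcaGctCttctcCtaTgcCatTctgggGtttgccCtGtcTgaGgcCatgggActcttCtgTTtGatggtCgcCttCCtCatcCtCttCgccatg
Atp5g2: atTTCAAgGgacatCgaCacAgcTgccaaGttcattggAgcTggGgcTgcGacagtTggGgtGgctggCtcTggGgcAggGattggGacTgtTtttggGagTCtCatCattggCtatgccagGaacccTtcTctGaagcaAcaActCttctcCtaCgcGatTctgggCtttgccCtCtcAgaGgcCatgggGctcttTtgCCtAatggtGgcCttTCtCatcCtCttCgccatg
Atp5g3: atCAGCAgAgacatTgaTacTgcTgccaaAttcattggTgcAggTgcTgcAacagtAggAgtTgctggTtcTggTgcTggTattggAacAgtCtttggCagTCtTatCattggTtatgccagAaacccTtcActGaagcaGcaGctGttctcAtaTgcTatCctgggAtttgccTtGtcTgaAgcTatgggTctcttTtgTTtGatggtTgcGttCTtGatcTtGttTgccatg
Atp5g1 and Atp5g2 were identical at 84.62% of the 234 bases, Atp5g1 and Atp5g3 at 78.63%, and Atp5g2 and Atp5g3 at 77.35%. Of the 36 bases that differed between Atp5g1 and Atp5g2, 33 lay at the third codon position.

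Atp5g1 was at 461.8 and 631.1 TPM, with a ratio of 0.499 (0.457 to 0.541), and Atp5g3 at 374.6 and 535 TPM, with a ratio of 0.564 (0.522 to 0.605). In the first tables, Atp5g1 gave 54.56% and 53.5% of the summed TPM of the 3 genes, Atp5g3 44.25% and 45.36%, and Atp5g2 only 1.187% and 1.139%. Atp5g2 had 217.9 and 290.9 reads there, while Gm10175, a transcribed processed pseudogene on chromosome 7 (mm10 chr7:23946646-23947290), held 4043 and 3961. Gm10175 matched Atp5g2 at 100% over its 645 bases, so reads inside that stretch cannot be told apart by sequence. In the second tables Gm10175 held fewer than 1 read and Atp5g2 was at 335.3 and 322.6 TPM, or 22.61% and 17.21% of the 3 genes. Adding the copies to the first tables put Atp5g2 at 225 ± 0.8485 TPM (SD, n = 2) and its share at 17.99%. The ratio of Atp5g2 also changed: 0.464 (0.207 to 0.725) and called alone, it was 0.046 with the copies and 0.092 in the second tables, and was not called in either.

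Copies with at least 20 reads were found for 11 members. By alignment of member transcripts to all annotated transcripts, 34 other genes matched at 95% identity or more over at least 200 bases and at least 50% of the shorter transcript, and 31 of them are annotated as pseudogenes. They held 3.55% of the reads of members and copies together in the first tables and 0.978% in the second. For Atp5l, 29.61% and 28.15% of these reads were on copies in the first tables, mostly on Gm10221, which matched it at 100% over 309 bases. The shares were 20.55% and 18.59% for Cox7a2l, 16.65% and 16.57% for Atp5h, 12.9% and 14.43% for Cox7c, 7.895% and 6.94% for Cox5b, and 5.772% and 4.252% for Atp5g1. In the second tables the shares for Atp5l, Atp5h, Cox7c, Cox5b and Atp5g1 were below 0.1%. Atp5o went the other way, with 1.384% and 1.366% on its copy Gm5436 in the first tables and 5.967% and 6.108% in the second. Whether any copy is itself transcribed was not tested.

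**Figure D4:**
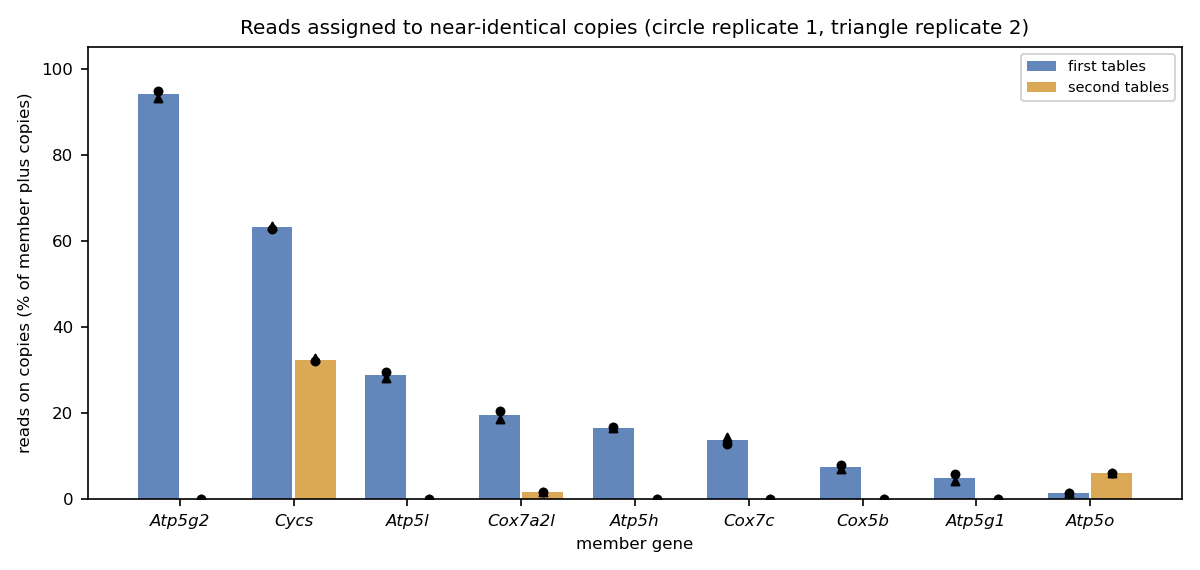
Percent of reads assigned to near-identical copies, of reads on the member and its copies together, for members with at least 1% in replicate 1 of the first tables. Bars are means of 2 libraries and points are the libraries; Atp5g2 and Cycs stand at 94.89% and 62.78% in replicate 1 of the first tables.

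Beyond Cycs and Atp5g2, the 2 kinds of table differed at least 2-fold in both libraries for Cox7c, which was 2.37 and 2.26 times as high in the second tables after rescaling to protein-coding genes, and Sdhc, which was 0.495 and 0.497 times as high. With its copy Gm10012 added, Cox7c was 1.919 and 1.785 times as high, under 2-fold. Rescaled in the same way, Atp5e was 1.839 and 2.071 times as high in the second tables, Cox7a2 1.836 and 1.801, and Atp5j2 1.678 and 1.663. Cox7b was 1.582 and 1.605 times as high and Cox6c 1.543 and 1.555, while Cox6b1 was 0.5786 and 0.4522 times as high. Within 1.5-fold of each other were 38 of 48 members, or 79.17%, against 94.57% of 9541 protein-coding genes. Among genes with a mean transcript length under 600 bases the shares were closer, at 16 of 21 members and 74.07% of 162 genes. At 600 bases or more the members stayed lower, at 22 of 27, or 81.48%, against 94.92% of 9379 genes. For Sdhc, the 298-base transcript Sdhc-203 carried 109.7 and 129.5 TPM in the first tables and was at 0 in the second.

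The transcript named as the main form often depended on the table as well. Of the 48 members with at least 200 summed reads, 29 had the same leading transcript in both kinds of table and 19 did not. In 16 of those 19 the leading transcript of the second tables was the longer. The leading transcript was not protein coding for 5 members in the first tables and for 10 in the second. Cox7b, a subunit of complex IV, was led in both by Cox7b-203, annotated as a retained intron, with 53.95% and 60.5% of its TPM in the first tables and 99.83% and 99.87% in the second. Uqcr10 was led by the coding Uqcr10-201 in the first tables, at 95.59% and 95.58%, and by the processed transcript Uqcr10-203 in the second, at 83.61% and 82.16%. Over all 48 members, transcripts not annotated as coding held 13.06% and 14.55% of the TPM in the first tables and 23.18% and 23.75% in the second. Such counts were not made over all genes, so whether the members differ from other genes here was not tested.

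For Cox6b1, a complex IV subunit at the face where cytochrome c binds, TPM and reads gave different ratios. Its TPM of 524.7 and 841.2 gave a log2 ratio of 0.681, while its reads, 7104 and 8676, gave 0.337 (0.292 to 0.382). The reads moved between transcripts of unequal length: Cox6b1-201, of 618 bases, had 4850 and 2257 reads, and Cox6b1-204, of 354 bases, had 1413 and 3512. Cox6b1-202, of 369 bases and annotated as a retained intron, had 826.1 and 2882. The posterior SD of the Cox6b1-201 count was 530.8 and 388.4 reads, and in the second tables this transcript held 3867 and 4665 reads. In the second tables Cox6b1 was at 496.2 and 597.1 TPM.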

How the data were processed

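Total RNA was sequenced from gastrocnemius in 2 libraries of 1 group. Expected counts and TPM per gene and transcript were deposited by the authors in tables derived from transcriptome alignments, with a posterior SD of each count and posterior mean TPM (used here as a score). A second deposited set gives estimated counts and TPM per transcript, derived directly from reads; these were summed to genes here. The assembly mm10 and GENCODE M21 are per the deposited notes; which programs, versions and strand settings made the tables was not given in the sources used here. Antisense and overlapping genes may therefore share reads. Expected counts were rounded. Libraries were scaled with TMM factors of edgeR 4.0.16 (R 4.3.3), and 0.5 was added to each count for ratios. With 2 libraries of 1 group, no spread is left for a model-based test, so the exact conditional binomial test (scipy 1.17.1) was used, with 95% Clopper-Pearson intervals that cover counting error only; the test was checked on simulated data. Alternatives were the library total, DESeq2 1.42.0 size factors, spike-in sums, other count minimums and folds, the second tables, posterior mean counts, summed identifiers and leaving out each library. Copies were found with BLAST 2.17.0. Adding copies to members was chosen after seeing the data. The rule for full statistics took the 3 most abundant of each complex, isoform pairs, and the 5 largest and 5 smallest ratios. It also took members whose tables differed at least 2-fold. Other members are also given with levels and ratios, some with intervals, but the named-gene settings below cover only genes under the rule. The members and lists were chosen with earlier results of these data known. Promoter windows are from RefSeq on GRCm38.p6. White and brown adipocyte, macrophage and red cell lists were also measured: of 4, 2, 4 and 3 genes, 0, 1, 0 and 0 rose and 0, 0, 1 and 0 fell.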

Additional observations from a re-analysis of the deposited data

How the results depend on the processing

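The median log2 ratio of the members stayed between 0.317 (library total) and 0.402 (spike-in sum) over 9 alternatives. The count of members called higher in replicate 2 ranged from 22 under the library total to 36 in the second tables and 44 with no fold. It was 1 with a fold of 1.5, since 30 of the 31 called ratios lie under 1.5-fold. No member was called higher in replicate 1 under the alternatives run. Summed TPM moved from 16326 to 27840 in the second tables and to 41172 when rescaled to protein-coding genes, and without 1 library ranged from 14474 to 18178. Scaling moved the median of all genes between -0.032 and 0.053, and none of these shifts exceeded 0.1. Signs turned for Uqcc2 (0.033) and Uqcc3 (0.013) under the spike-in sum, for Uqcc3 (0.138) and Cox4i2 (-0.322) in the second tables, and for the median of the 3 complex III assembly genes (0.033 and 0.138); none of these was called, and the cause was not tested. Of 260 named-gene settings, 11 lost and 5 gained a call. With copies added, the members called were 30. Depth limits Cox4i2, Cox6b2, Cox7b2 and Cox8c. No paired analysis was possible because there is 1 group.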
